A study of Glycine max with 12 samples.

Results

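A set of 151 soybean genes had higher transcript levels in both R5 libraries of the cultivar Thorne than in every R5 library of the edited lines. They were selected on those levels from 56044 gene IDs. The selection took genes with a mean of 2 CPM or more in the Thorne R5 libraries whose lowest Thorne value was at least 1.5 times the highest value among the 4 mutant libraries. Levels are in CPM, read counts divided by library size with TMM scaling over the 6 R5 libraries, and are not corrected for gene length. Of the 29142 genes that reached the minimum level, 151 passed, which is 0.518%, so the planned limit of 200 genes left none out. The same rule turned round, with mutants above Thorne, gave 59 of 29391 genes (0.201%). Since these levels chose the genes, their difference between Thorne and the mutants at R5 is a description with no test. In whole seed, a lower level can be less RNA per cell or fewer cells of a type, which cannot be told apart.

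The study measured RNA by sequencing in field-grown soybean (Glycine max), in material labelled seed that was collected from 3 to 5 plants per sample. The 6 groups had 2 libraries each: WT Thorne, the unedited cultivar, the Gm20 single mutant, edited in the gene of the major seed protein locus on chromosome 20, and the Gm20/Gm10 double mutant, which also carries an edit in the paralog on chromosome 10, each at stages labelled R5 and V5. The series' design text calls the lines transgenic, and whether they still held the editing transgene, or how many independent lines each mutant stands for, is not given in the sources used here. Nothing in the labels places the libraries of a group in separate plots, so p-values measure only how these samples vary, and that variation may be technical.

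As background, the chromosome 20 locus is a major source of natural variation in the balance of protein and oil in soybean seed, and its gene is known to encode a protein with a CCT domain, a motif of nuclear regulators in plants. R5 is the growers' name for the start of seed filling, when the embryo takes up sugars and amino acids and begins to lay down storage protein and oil inside the maternal seed coat. V5 names a stage of vegetative growth, although the V5 libraries also carry the tissue label seed. The stages are used here as labels. The files give gene IDs only, and a reference table of 59048 soybean genes shared no ID with them (0 matches). The members therefore appear by ID, without name or function, and the labelled tissue could not be checked against named marker genes.

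The R5 libraries held 26966329 to 34626177 counts and the V5 libraries 20410270 to 21066989. At R5 the libraries did not group by genotype. The SD of log2 level ratios over 18876 genes was 0.341 between the Thorne libraries, 0.201 between Thorne replicate 1 and double mutant replicate 2, and 0.120 between double mutant replicate 1 and single mutant replicate 2, called the close pair below. The other pairs of R5 libraries ranged up to 0.891. At V5, single mutant replicate 2 stood apart, with SDs of 1.53 to 1.57 against the other 5 libraries, where those 5 differed from each other by 0.210 to 0.474.

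The members together made up little of the RNA. Their summed level was 1444 CPM in Thorne R5 replicate 1 and 3677 CPM in replicate 2. In the double mutant it was 446 and 623 CPM, and in the single mutant 611 and 509 CPM, for replicates 1 and 2. The rule bounded the highest mutant value of a gene but not its higher Thorne value. In these sums Thorne replicate 2 stood far above Thorne replicate 1, and the 4 mutant libraries lay between 446 and 623 CPM. In read counts without scaling, the members made up 0.149% and 0.383% of all counts in the Thorne libraries and 0.0413% to 0.0657% in the mutants. The median member had 5.18 and 11.8 CPM in the Thorne libraries and 0.981 to 1.82 CPM in the mutant libraries. The ratio of the Thorne mean to the mutant mean had a median of 4.76 over the members, with quartiles of 3.28 and 7.80. It reached 5 or more in 70 members, 10 or more in 31 and 20 or more in 22.

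**Figure D1:**
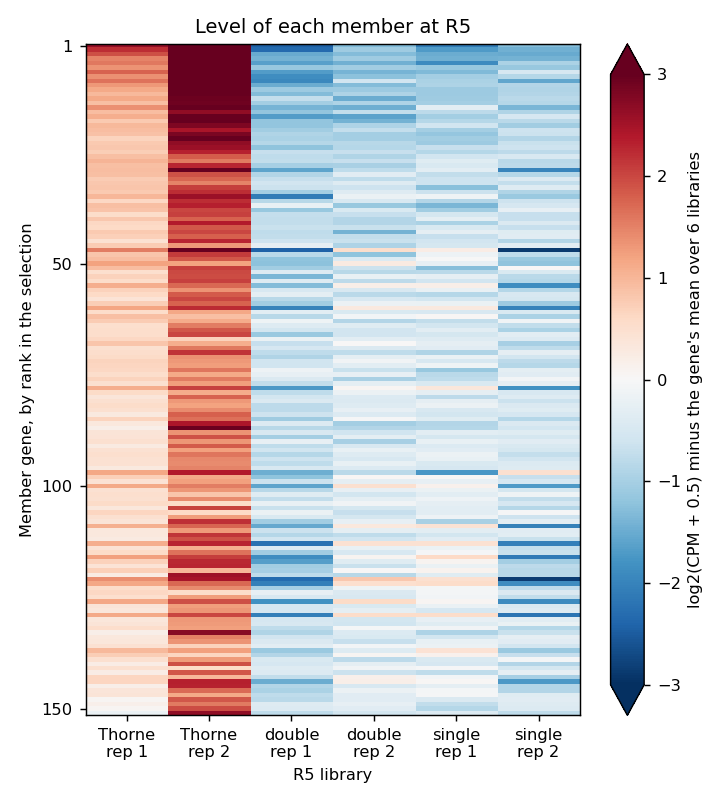
Level of each of the 151 members (rows, by rank in the selection) in the 6 R5 libraries (columns), as log2(CPM + 0.5) minus the gene's mean over the 6 libraries, with colours saturating at 3 and -3. Red stands for levels above the gene's mean and is deepest in Thorne replicate 2, while the mutant columns are mostly blue. The summed level of the members was 1444 and 3677 CPM in Thorne and 446 to 623 CPM in the mutants.

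The members ranged widely in level. The mean Thorne R5 level had a median of 8.37 CPM and a highest value of 110 CPM. It was under 5 CPM in 53 members, 10 CPM or more in 69 and 50 CPM or more in 14. In 20 members every mutant library was under 0.5 CPM, and 7 members had 0 counts in at least 1 mutant library, although none had 0 in all 4. The lowest of these values lie near what few reads can resolve, since 3 counts correspond to 0.0805 to 0.111 CPM in an R5 library.

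The pair of genes first in rank, by the ratio of lowest Thorne to highest mutant value after adding 0.5 CPM to each, also had the highest mean CPM in Thorne among the members. Glyma.01G204400 had 46.8 and 173 CPM in the Thorne R5 libraries (1490 and 5800 counts). The double mutant libraries had 0.883 and 2.54 CPM, and those of the single mutant 1.26 and 2.58 CPM (27 to 79 counts). Its Thorne libraries lay above every mutant library by at least 18.2 times, and Thorne replicate 2 was 3.70 times replicate 1. Glyma.11G038600 had 39.2 and 169 CPM in Thorne, 1.21 and 3.61 CPM for the double mutant and 2.15 and 2.64 CPM for the single mutant. For this gene the gap was 10.9 times and Thorne replicate 2 was 4.32 times replicate 1. Both genes had 0 to 2 counts in each of the 6 V5 libraries, where a count of 0 allows up to 0.105 to 0.188 CPM. Next in rank, and named after its values were seen, Glyma.20G116700 had 5.96 and 24.5 CPM in Thorne and 0.0978 to 0.184 CPM (3 to 5 counts) in the mutants. Its gap of 32.4 times was wider but rests on these few counts.

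At the edge of the rule the gap was small. Just inside, Glyma.13G176600 had a lowest Thorne value of 1.57 CPM against a highest mutant value of 1.05 CPM, a ratio of 1.501. Just outside, Glyma.17G030700 had 21.4 against 14.3 CPM, a ratio of 1.495. Without the factor of 1.5, the Thorne libraries lay above all mutant libraries in 3509 of 29142 genes (12%). A gap of 2 times or more was met by 67 of the members.

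The Thorne libraries themselves differed in nearly all members, and in one direction. Thorne replicate 2 was above replicate 1 in 146 of 151 members (96.7%), where the share over all 29142 eligible genes was 49.6%. It was at least 2 times replicate 1 in 99 members (65.6%) against 748 eligible genes (2.57%). The 99 members were 13.2% of those 748 genes. The rule used the lower of the Thorne values and their mean, and named no order between the replicates. Both values still took part in the selection, and a member could reach the minimum mean through 1 of them. The shares and ratios given here are therefore descriptions. On the log2(CPM + 0.5) scale the median member was 1.19 higher in Thorne replicate 1 than in the mean of the mutants, and 1.14 higher in replicate 2 than in replicate 1. Members with a gap of 2 times or more had a median replicate 2 to replicate 1 ratio of 3.15, against 1.98 in the 84 members with a smaller gap. For the median member the distance between the Thorne libraries was thus nearly that between Thorne replicate 1 and the mutants. What made the Thorne libraries differ was not tested.

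**Figure D2:**
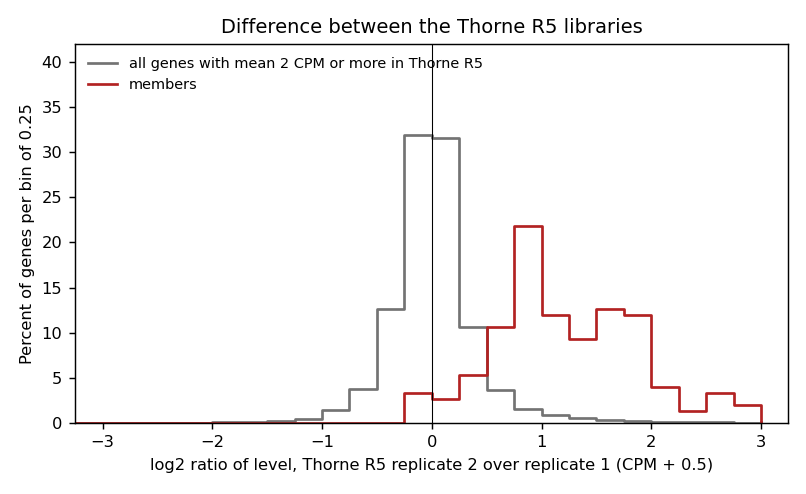
Percent of genes in each bin of 0.25 (y axis) by the log2 ratio of Thorne R5 replicate 2 over replicate 1 (x axis, CPM + 0.5), for the 151 members (red) and for all 29142 eligible genes (grey). The grey curve is centred on 0 and the red curve lies to its right, with a median of 1.14.

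The 5 members in which replicate 2 was not the higher one were Glyma.13G274300, Glyma.03G067200, Glyma.18G086600, Glyma.01G210500 and Glyma.07G238800, named after their values were seen. In these the Thorne libraries were nearly equal. Glyma.13G274300 had 4.43 and 4.39 CPM in Thorne, against 0.848 to 2.17 CPM over the mutant libraries. Glyma.18G086600 had 4.68 and 4.51 CPM in Thorne, against 1.55 to 2.71 CPM over the mutant libraries. In these genes both Thorne libraries lay above the mutants by a wider margin than they differed from each other. The rule set the margin over the mutants, and the genes were picked on their Thorne values, so this is only a description.

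Which genes entered the set depended on single libraries. With Thorne replicate 2 left out, 133 genes met the rule and 113 of them were members. The minimum mean then rested on Thorne replicate 1 alone. With Thorne replicate 1 left out, 1202 genes met it, and 97 members were among the 200 with the largest ratio. Without double mutant replicate 2 or single mutant replicate 1, 529 and 434 genes met it, with 89 and 101 members among the 200 kept. Apart from rescaling, leaving out a library can only loosen the required gap. With more than 200 genes passing, members could thus drop out by rank while still meeting it. Without the close pair 205 genes met it, and 145 members were kept. Thorne replicate 1, double mutant replicate 2 and single mutant replicate 1 were thus the libraries that limited the set.

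The mutants had like median levels in these genes. On the log2(CPM + 0.5) scale the double mutant minus the single mutant had a median of -0.10, with quartiles of -0.20 and 0.07, against a median of 0.02 over all eligible genes. The double mutant mean was the higher one in 55 of 151 members. The sign depended on single libraries: the members' median edgeR log2 fold change between the mutants was -0.13, but -0.39 without double mutant replicate 2, 0.09 without double mutant replicate 1 and 0.02 without single mutant replicate 1. Over the 4 mutant libraries the highest level was 1.52 times the lowest in the median member (0.5 CPM added to each), against 1.43 times over eligible genes. EdgeR's quasi-likelihood test between the mutants at R5, with Benjamini-Hochberg adjustment over 37058 genes, called 0 genes (0%), and so 0 of the 150 members tested (at an unadjusted p under 0.05 it was 99 genes over all, 0.0513% higher and 0.216% lower in the double mutant, and 0 members). DESeq2 and limma also called 0. With 2 libraries per mutant this does not show that the mutants had equal levels.

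Differences among the 4 mutant libraries followed the close pair more than the genotype in part of the set. In 24 members (15.9%) both libraries of the close pair were at 0.5 times or less of both other mutant libraries, where the share over eligible genes was 2.59%. The opposite, 2 times or more, held for 2 members and for 3.19% of eligible genes. The rule bounded the highest mutant value, so all 4 mutant libraries took part in the selection. A gene low in the close pair had only the other mutant libraries left to meet the bound. These shares are therefore descriptions. Glyma.16G107500 had 12.0 and 28.1 CPM in Thorne, 7.63 CPM in double mutant replicate 2 and 7.51 CPM in single mutant replicate 1, but 0.752 and 0.913 CPM in the close pair. Glyma.13G046300 had 10.9 and 19.96 CPM in Thorne, 4.65 and 6.92 CPM in the same mutant libraries and 0.850 and 0.620 CPM in the close pair. These genes were picked after their values were seen.

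The fit across all genes at R5 describes the same contrast that chose the members. EdgeR called 0 of 37058 genes (0%) in the double mutant against Thorne and 0 (0%) in the single mutant against Thorne, with 1089 and 2035 genes at an unadjusted p under 0.05. Of the 150 members tested, 134 and 133 were lower at that unadjusted threshold, where 1.69% and 2.59% of all genes were, and 0 were higher, beside 1.25% and 2.9%. None of these members was called after adjustment, and 1 member fell under the filter on low counts. The median log2 fold change of these members was -2.27 (double mutant) and -2.18 (single mutant), against -0.02 and 0.00 over all genes. DESeq2 called 58 genes (0.157%) in the double mutant, 53 of them lower, and 73 genes (0.197%) in the single mutant, 46 of them lower. Of these, 47 and 46 were members, all lower. Limma with sample quality weights called 0 genes in either mutant. Since the rule used these levels, nothing is read from these counts.

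The V5 libraries took no part in the selection. Many members had low levels there. In 80 of 151 members the mean V5 level was under 1 CPM, while 91.3% of eligible genes were at 1 CPM or more, against 47.0% of members. All 6 V5 libraries were at 0.1 CPM or less in 23 members (15.2%) and in 1.32% of eligible genes, and 8 members had 0 counts in all 6. With all 12 libraries scaled together, both Thorne R5 libraries lay above every V5 library in 91 members (60.3%) and in 37.3% of eligible genes. The Thorne R5 levels were part of the rule, and the eligible genes were not matched to the members on level, so these shares are descriptions. Both Thorne R5 libraries were below both Thorne V5 libraries in 9 members (5.96%) and in 34.2% of eligible genes.

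One of those members dominated the V5 sum. Glyma.16G107500 had 1393 and 902 CPM in Thorne V5, 2434 and 1662 CPM in both double mutant libraries, 1719 CPM in single mutant replicate 1 and 10.9 CPM in single mutant replicate 2. The groups overlapped because of that last library. Without this gene the members summed to 526 and 493 CPM in Thorne V5, 573 and 535 CPM for the double mutant and 583 and 625 CPM for the single mutant. With the gene included the V5 sums were 1918 and 1394 CPM in Thorne and 3007 and 2196.5 CPM for the double mutant. For the single mutant they were 2302 and 636 CPM. At R5 the sums without this gene were 1432 and 3649 CPM in Thorne and 445 to 615 CPM in the mutants. The rule set that gap at R5 and used no V5 library, so the smaller differences at V5 are only a description.

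Members were then compared between genotypes at V5, in libraries that the rule did not use. Of 71 members with a mean of 1 CPM or more at V5, 3 (4.23%) had all 4 mutant libraries below both Thorne libraries, where the share over 30472 such genes was 8.35%. The opposite, all mutant libraries above both Thorne libraries, held for 14 members (19.7%) and for 8.11% of all such genes. The groups overlapped in the other 54. The minimum is a mean over 6 libraries of which 4 are mutants, and 4 of the 14 had a Thorne mean under 1 CPM and passed through the mutants. With the minimum set on the Thorne libraries alone, a filter chosen after the data were seen, 10 of 57 members (17.5%) lay above and 3 (5.26%) below, beside 7.41% and 9.03% of all such genes. Without single mutant replicate 2 the counts were 5 below and 20 above among 61 members, beside 17.4% and 18.1% of all genes. In the members that reached 1 CPM at V5, the R5 order without overlap was thus seen again in few. Overlap does not show that a difference was absent, and the 80 members under 1 CPM were not compared here.

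EdgeR called 0 of 33599 genes at V5 (0%) in the double mutant against Thorne and 0 (0%) in the single mutant against Thorne, with 517 and 2022 genes at an unadjusted p under 0.05. Of the 93 members tested, 7 were higher and 1 was lower at that unadjusted threshold in the double mutant, where the shares over all genes were 0.735% and 0.804%. In the single mutant 18 were higher and 0 lower, beside 3.68% and 2.34% of all genes. Members below the filter on low counts numbered 58, and a member could pass it through 1 high group, so these counts describe only the members that passed. The 93 members had a median log2 fold change of 0.21 (double mutant) and 0.64 (single mutant), beside 0.00 and 0.03 over all genes. Without single mutant V5 replicate 2, edgeR again called 0 of 34215 genes (0%), with 5594 and 5541 genes at an unadjusted p under 0.05, and the medians over 96 members were 0.22 and 0.28. In that fit 18 members were higher and 5 lower in the double mutant at the unadjusted threshold, beside 8.15% and 8.2% of all genes. In the single mutant 20 were higher and 6 lower, beside 8.22% and 7.97%. Per library, the median member stood 0.22 and 0.13 above the Thorne mean for the double mutant libraries, and 0.25 and 0.54 above it for those of the single mutant, on the log2(CPM + 0.5) scale, while the Thorne libraries stood at 0.02 and -0.02. DESeq2 called 11 genes (0.0327%) for the double mutant and 167 (0.497%) for the single mutant, of which 1 and 2 were members, all higher. Without single mutant V5 replicate 2, DESeq2 called 3 members higher and 1 lower in each mutant, beside 0.766% and 0.953% of all genes for the double mutant and 0.655% and 0.631% for the single mutant. Limma called 0 in both.

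**Figure D3:**
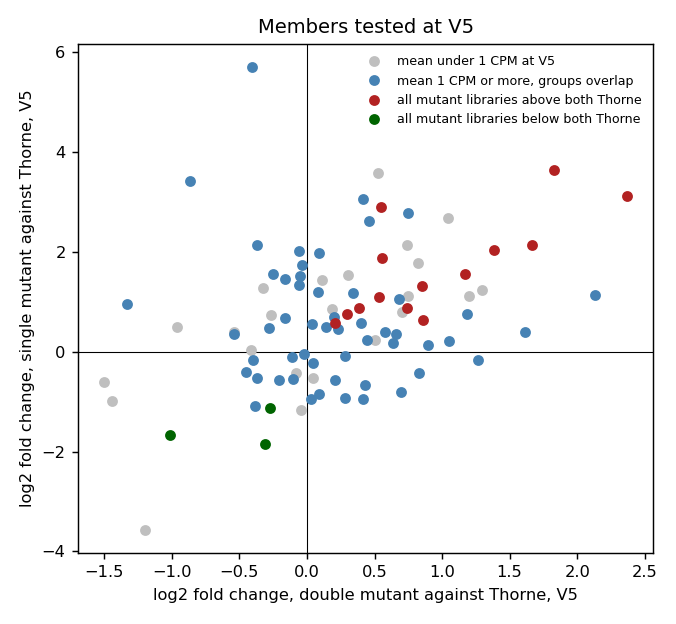
Log2 fold change at V5 against Thorne in the double mutant (x axis) and in the single mutant (y axis). Each point is 1 of the 93 members tested. Colours show, for members with a mean of 1 CPM or more, whether all 4 mutant libraries lay above or below both Thorne libraries. Members under that mean are grey whatever their order. More points lie above 0 than below it, with medians of 0.21 and 0.64, and 14 members are in the class above against 3 in the class below.

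The members with the smallest p at V5 were higher in the mutants. Glyma.01G193600 had 32.4 and 64.9 CPM in Thorne R5, with 18.8 and 13.0 CPM for the double mutant and 9.31 and 17.0 CPM for the single mutant. At V5 it had 2.96 and 2.82 CPM in Thorne, 19.6 and 10.4 CPM for the double mutant and 25.4 and 24.4 CPM for the single mutant. All mutant libraries were thus below Thorne at R5 and above it at V5. For the double mutant the V5 log2 fold change was 2.37 (SE 0.37; adjusted p = 1 by edgeR, 0.0063 by DESeq2). For the single mutant it was 3.11 (SE 0.38; adjusted p = 0.649 by edgeR, 2.49e-06 by DESeq2).

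Glyma.06G259800 showed the same order. It had 14.8 and 25.8 CPM in Thorne R5 and 6.84 to 9.00 CPM in the mutants, and at V5 it had 9.42 and 8.59 CPM in Thorne, 22.2 and 18.6 CPM for the double mutant and 27.6 and 24.8 CPM for the single mutant. Neither stage had overlap between Thorne and the mutants. Its V5 log2 fold change was 1.17 for the double mutant (SE 0.22; adjusted p = 1 by edgeR, 0.328 by DESeq2). For the single mutant it was 1.55 (SE 0.22; adjusted p = 0.649 by edgeR, 0.00392 by DESeq2). The difference between the stages was not tested, because the R5 levels chose these genes.

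**Figure D4:**
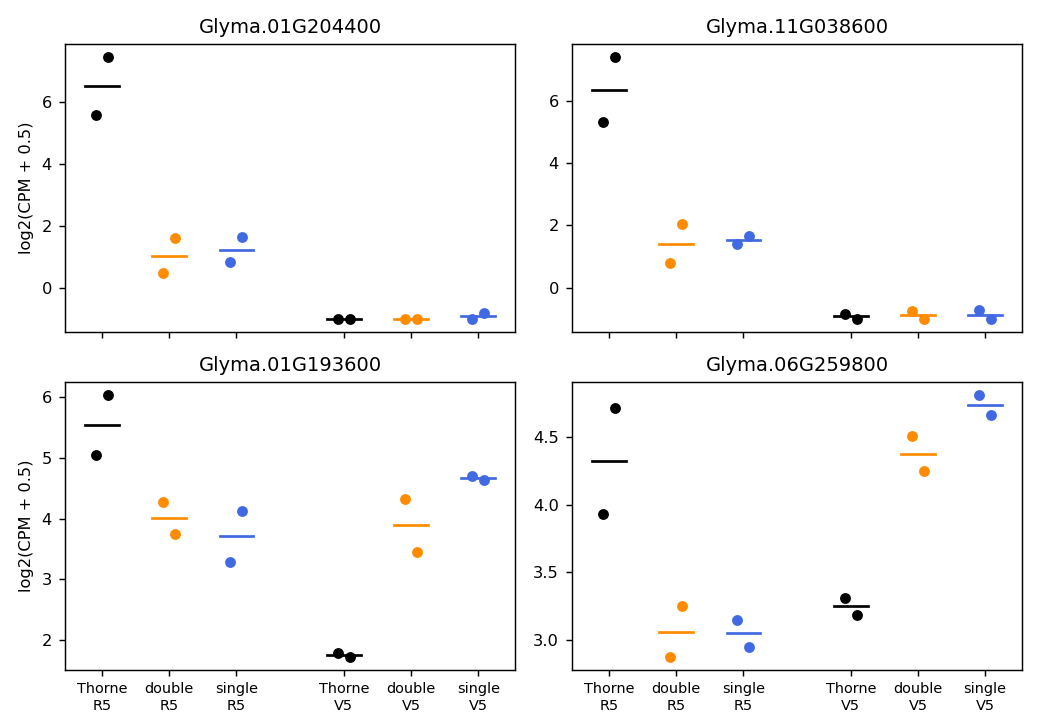
Level as log2(CPM + 0.5) (y axis) of 4 members in the 12 libraries, with points for libraries, lines for the mean of each group of 2, a y axis of its own in each panel, and R5 and V5 scaled separately. Glyma.01G204400 and Glyma.11G038600 are high only in the Thorne R5 libraries among these 12, while Glyma.01G193600 and Glyma.06G259800 are lower in the mutants at R5 and higher in them at V5.

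Of the 93 members, 59 had a fitted log2 fold change above 0 in the double mutant and 65 in the single mutant, where the shares over all genes tested were 49.97% and 51.8%, and the rest were lower. Among those that were lower, the smallest p belonged to Glyma.13G274300 in both mutants, with 1.08 and 0.815 CPM in Thorne V5, 0.373 and 0.320 CPM for the double mutant and 0.452 and 0.488 CPM for the single mutant (7 to 20 counts). Its groups did not overlap at either stage. Against Thorne, edgeR gave a V5 log2 fold change of -1.44 (SE 0.47, adjusted p = 1) for the double mutant and of -0.99 (SE 0.46, adjusted p = 0.649) for the single mutant. Second was Glyma.10G169300 in the double mutant, at 1.13 and 0.564 CPM in Thorne and 0.140 and 0.457 CPM in the double mutant, and Glyma.05G132900 in the single mutant, at 14.0 and 14.5 CPM in Thorne and 10.05 and 3.07 CPM in the single mutant. None of them passed edgeR's test, with an adjusted p of 1 for Glyma.10G169300 and 0.649 for Glyma.05G132900. The 3 members with all mutant libraries below Thorne at V5 and a mean of 1 CPM or more were Glyma.05G132900, Glyma.02G235400 and Glyma.13G046300, and in each of them the lowest library was single mutant replicate 2.

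That outlying V5 library moved many members. It was at least 2 times the highest of the other 5 V5 libraries in 20 of 71 members (28.2%) and in 12.7% of eligible genes of that level. It was at 0.5 times or less of the lowest of the other 5 in 18 members (25.4%), against 17.9% of eligible genes. The minimum of 1 CPM includes that library, and 8 of the 71 members reached it only through it. With the minimum set on the other 5 libraries, a filter chosen after the data were seen, it was at least 2 times the others in 13 of 63 members (20.6%, against 11.8% of eligible genes) and at 0.5 times or less in 18 (28.6% against 18.3%). Between the mutants at V5 edgeR called 0 genes (0%), with 1351 at an unadjusted p under 0.05, and limma called 0. At that threshold 0 members were higher and 10 lower in the double mutant, beside 1.23% and 2.79% of all genes, and without the outlying library 4 were higher and 4 lower, beside 4.65% and 4.5%. DESeq2 called 113 genes (0.336%), of which 1 was a member, Glyma.18G086600. That gene had 37.7 CPM in single mutant replicate 2 and 0.125 to 0.592 CPM in the other 5 libraries, so its difference came from 1 library. Of the 24 members that were low in the close R5 pair, 11 reached 1 CPM at V5, and 7 of these were at 0.5 times or less of the other 5 in the outlying V5 library, beside 49.7% of the 493 eligible genes with the same R5 pattern. 

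By the chromosome number that soybean gene IDs carry, the members were spread over all 20 chromosomes. Chromosome 13 held 14 (9.27%, against 6.99% of eligible genes). Chromosome 10, which carries the paralog edited in the double mutant, held 11 (7.28% against 5.35%). Chromosome 14 held 2 (1.32% against 3.89%) and 1 member was unplaced. Chromosome 20, which carries the gene edited in both mutants, held 4 members, Glyma.20G116700, Glyma.20G172700, Glyma.20G211700 and Glyma.20G063100. That is 2.65% against 4.41% of eligible genes. A total of 21 members formed 11 pairs with ID numbers at most 1000 apart, where ID numbers usually step by 100 along a chromosome. No share over eligible genes is given for these pairs, so their number is only a description of the pairs. The closest were Glyma.06G300100 with Glyma.06G300200, Glyma.07G235900 with Glyma.07G236000 and Glyma.16G178400 with Glyma.16G178500, each 100 apart. Near-identical neighbours or paralogs may share reads in the authors' counting, so these pairs are uncertain as separate genes.

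**Figure D5:**
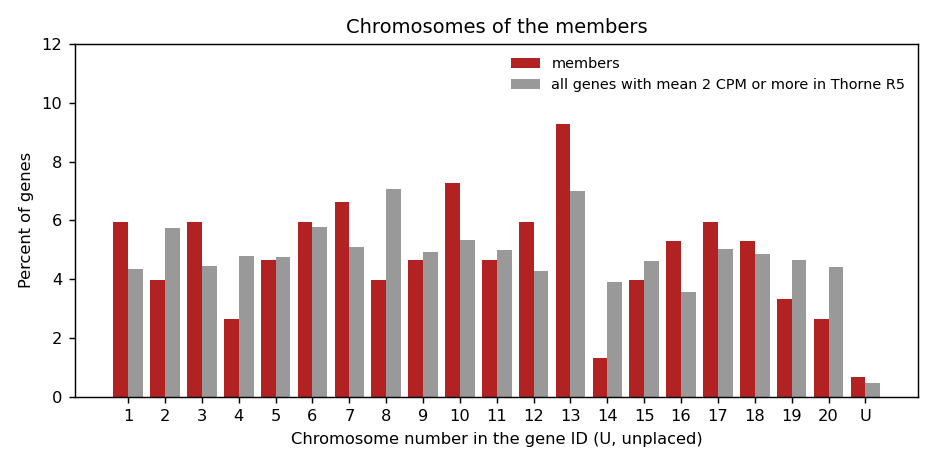
Percent of the 151 members (red bars) and of all 29142 eligible genes (grey bars) on each chromosome, by the number in the gene ID, with U for unplaced IDs. Members occur on every chromosome, with 9.27% on chromosome 13, 7.28% on chromosome 10 and 2.65% on chromosome 20.

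Values are given for examples of these neighbouring pairs, picked after their values were seen. The rule put Thorne above the mutants at R5 in every member, so likeness in that order is no trait of a pair. Glyma.16G178400 had 5.18 and 11.6 CPM in Thorne R5 and 1.59 to 2.25 CPM in the mutants, and Glyma.16G178500 had 10.4 and 19.9 CPM in Thorne and 2.62 to 3.65 CPM in the mutants. Both had a ratio of Thorne replicate 2 to replicate 1 near that of the median member, 2.23 and 1.91 beside 2.25. In the pair on chromosome 7, Glyma.07G235900 had 2.67 and 3.29 CPM in Thorne R5 and its neighbour Glyma.07G236000 had 10.2 and 17.6 CPM, while the mutants had 0.391 to 1.29 and 4.04 to 6.60 CPM.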

How the data were processed

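The authors deposited 1 table per library with whole-number read counts for 56044 gene IDs. Bowtie, HISAT2 and HTSeq are named in the submitters' processing notes. Their roles and versions, the build, annotation and strand setting used, and the treatment of reads matching several genes, were not given in the sources used here. Levels were computed from the deposited counts as CPM with TMM factors, separately for R5 and V5. Counts were tested with edgeR 4.0.16 (quasi-likelihood test, R 4.3.3) on the 6 libraries of a stage, after filterByExpr (minimum count 10, minimum total 15), with Benjamini-Hochberg adjusted p under 0.05. Alternatives were DESeq2 1.42.0, limma 3.58.1, RLE or no scaling, no filter, a replicate block, other limits of the rule and leaving out libraries. The code was tested on simulated counts. The members, the tests and the lists were chosen with earlier results of these data known. Gene lists were planned by product description and none could be filled, since no ID matched. Genes named by rule were those with the largest ratio and, at V5, at most 2 members per direction with the smallest p in each mutant; others were named after their values were seen. Replicate numbers are not stated to pair the samples.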

Additional observations from a re-analysis of the deposited data

Results flagged for a closer look

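In 14 members every mutant library was below both Thorne libraries at R5 and above both at V5, out of 71 members with a mean of 1 CPM or more at V5 (19.7%, beside 8.11% of all genes of that level for the V5 order alone). Of these 14, 4 had a Thorne mean under 1 CPM at V5 and passed the minimum through the mutant libraries. These genes drew attention because the genotypes changed order between the stages. The change between stages was not tested, and the R5 order was fixed by the selection. Among them, the V5 log2 fold change in the single mutant against Thorne was 3.11 for Glyma.01G193600 and 1.55 for Glyma.06G259800. The check for a gene's outlying sample within its group needs at least 4 samples and was not run on these groups of 2.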

How the results depend on the processing

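The number of genes meeting the rule was 146 to 151 under RLE scaling, filtered TMM factors, no scaling or a ranking offset of 2. It was 98 with a minimum of 5 CPM, 499 without a minimum, 67 with a gap of 2 times and 3509 with no gap. The stricter minimum and the wider gap keep 98 and 67 members by construction. Leaving out 1 library gave 133 to 1202 genes and kept 89 to 151 members among at most 200 genes with the largest ratio. Where more than 200 genes met the rule, a member could be left out by rank alone.

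EdgeR called 0 genes in all 6 comparisons, also with RLE factors, without the filter, with the replicate block, and with 12 or 4 libraries, and limma called 0. EdgeR also called 0 in the 3 R5 comparisons without the close pair. DESeq2 called 58, 73 and 0 at R5 and 11, 167 and 113 at V5 (double, single, double against single), and 588, 440 and 43 at V5 without single mutant replicate 2. Leaving out 1 library gave 0 at R5 and for the double mutant at V5. It gave 0 to 21539 for the single mutant and 0 to 22196 between the mutants at V5, the highest without single mutant V5 replicate 1, when the outlying library alone stood for its group and was assumed to vary like the others; of 107 members tested, 49 were then called higher and 20 lower in the single mutant than in Thorne, beside 29.6% and 30.3% of all genes.

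Same-numbered R5 libraries deviated with correlations of 0.34, -0.38 and -0.75, and V5 libraries with 0.03 to 0.06, so the numbers were not taken to pair the libraries; the replicate block changed no call. A crossed block at R5, chosen after the data were seen, gave 48 and 8 calls against Thorne and 0 between the mutants. Among these calls 7 and 3 members were lower, beside 0.0648% and 0.0081% of all genes. The rule used these R5 levels, so nothing is read from the counts of members.

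Without scaling the V5 median log2 fold changes of the members were 0.52 and 1.13, where the median of all genes was 0.31 and 0.47. The single mutant's was 0.46 in members with a gap of 2 times and 0.28 to 0.81 with 1 library left out. The double mutant's was 0.11 to 0.26, the lowest without double mutant V5 replicate 1. Members below Thorne at V5 numbered 1 without scaling, 1 with a gap of 2 times and 3 to 7 with 1 library left out. Members above numbered 31, 7 and 15 to 25. Without scaling 30.7% of all genes were above and 1.67% below, against 41.3% and 1.33% of members. With a gap of 2 times the 7 and 1 were of 23 members (30.4% and 4.35%), beside 8.11% and 8.35% of all genes. With 1 library left out the shares of all genes were 9.82% to 18.1% above and 10.3% to 18.1% below, and those of members 20.8% to 32.9% and 4.17% to 9.72%. With the minimum met by either Thorne or the mutants, 16 of 80 members were above (20% against 8.16% of all genes) and 3 below (3.75% against 8.61%). The causes were not tested.

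Over the eligible genes, the median log2 difference of the mutants from Thorne at R5 was -0.04 with TMM and -0.12 without scaling. The 2 libraries a group and the counts of a few reads limit the precision of single members.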
